A study of Mus musculus with 8 samples.

Results

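The extracellular matrix of brown fat was followed through 54 genes, chosen by name from the 54385 genes of the deposited count table. They are the 44 protein-coding genes whose GRCm38 symbol is Col, a number, a and a number, which are the collagen chains, and 10 further genes: Dcn, Lum, Bgn, Fn1, Fbn1, Sparc, Pdgfra, Dpp4, Pi16 and Ly6a. The rule uses names and no measured value, but it was set with earlier results of these data known. Polyadenylated RNA had been sequenced from the interscapular brown adipose tissue of C57BL/6N mice of 20 weeks on chow, in 8 libraries, 4 per group. The controls, WT, carry floxed alleles of Adcy3 on both chromosomes (Adcy3-FL/FL) and no Cre (Adipoq-wt/wt). The knockout, Ad-cKO, here cKO, carries the same floxed alleles and 1 copy of a Cre recombinase under the promoter of Adipoq, the adiponectin gene (Adipoq-wt/cre), so the deletion is aimed at adipocytes and not at the fibroblasts in which most matrix genes are known to be transcribed. Adcy3 encodes adenylyl cyclase 3, which makes cyclic AMP. WT replicate 4 is a control by title, yet its genotype entry lists the Cre. Nothing in the labels ties each library to an animal of its own, so p-values measure only the spread between these libraries.

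Collagens are built of 3 chains wound into a triple helix, for which each chain has to carry a glycine after every 2 other residues. Fibrillar collagens assemble into the cables that carry tension, type IV forms the sheet-like network of the basement membrane that wraps each adipocyte and capillary, and type VI forms beaded filaments between them. FACIT collagens sit on fibril surfaces, small leucine-rich proteoglycans such as decorin set fibril spacing, and fibronectin and fibrillin form fibres of their own. In adipose tissue much of the fibrillar matrix is known to come from Pdgfra-positive stromal progenitors, of which a Dpp4- and Pi16-positive class lies in the interstitium.

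The libraries held 10712795 to 32436907 counts over all 54385 genes of the deposited table. Adcy3 stood at 112, 118, 61.7 and 118 CPM (TMM-scaled counts relative to library size) in WT replicates 1 to 4 and at 17.95, 20.9, 25.3 and 21.5 CPM in cKO replicates 1 to 4, so every cKO library lay below every WT library. WT replicate 3 was the lowest of the WT libraries, and WT replicate 4 stood with replicates 1 and 2. Ucp1, the uncoupling protein that defines brown adipocytes, ran from 2233 to 4545 CPM, and all 6 brown adipocyte, 6 endothelial, 6 mural, 6 macrophage and 5 Schwann cell markers were above 1 CPM on average, whereas 4 of 5 mesothelial markers were below it. Skeletal muscle RNA varied most of these: its 8 markers together summed to between 34.8 and 7448 CPM in WT and between 127 and 9476 CPM in cKO, highest in cKO replicate 1 and then WT replicate 4. In whole tissue, fewer cells of a type and less RNA per cell cannot be told apart.

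The matrix genes were a small part of this tissue's RNA. Together the 54 genes took 0.190% of counts in cKO replicate 2, the lowest library, and 0.334% in WT replicate 3, the highest. The collagens alone took 0.114% to 0.210%, with the same libraries at either end. Of the 54 genes, 40 passed the filter on low counts and entered the tests, 30 collagens and all 10 others. Each level below that is set against that of another gene is in CPM per kilobase of the gene's summed exon length, as the mean of 8 libraries.

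**Figure D1:**
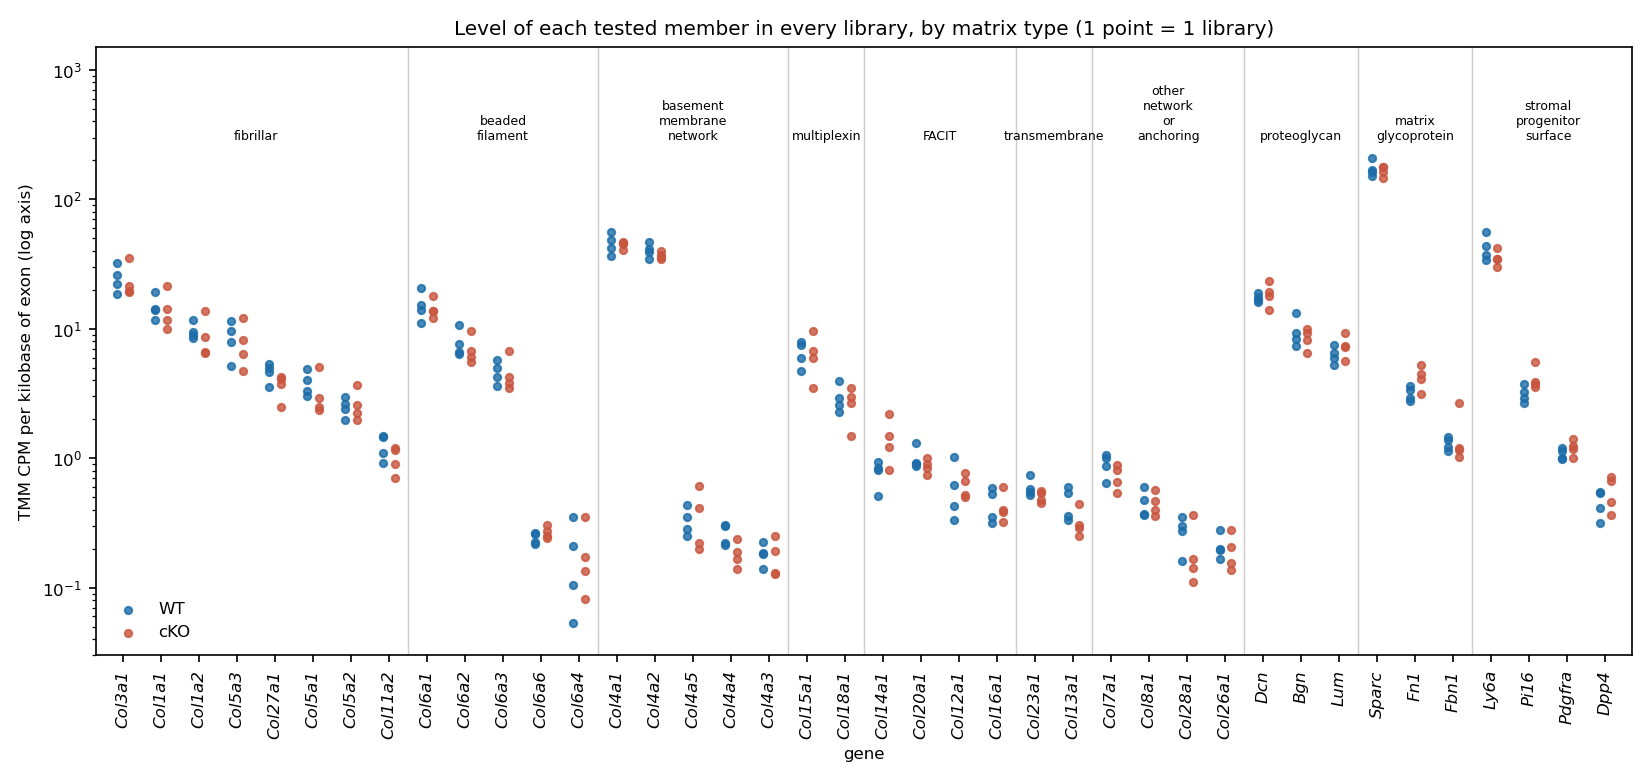
Level of each of the 40 tested genes, by matrix type, in CPM per kilobase of exon on a log axis; each point is 1 library, blue for WT and red for cKO. Sparc, Col4a1, Ly6a and Col4a2 stand highest, and the points of the groups overlap for all 40 genes.

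Sparc, a matricellular glycoprotein that binds collagen, was the most abundant at 169 ± 19.3 CPM per kilobase (SD, n = 8). The basement membrane chains Col4a1 and Col4a2 followed, at 45.2 ± 5.84 and 38.7 ± 4.13, with Ly6a, the Sca-1 surface protein of stromal progenitors and endothelial cells, between them at 39.0 ± 8.18. The first fibrillar chain in this order was Col3a1, at 24.3 ± 6.31, ahead of Dcn (decorin) at 18.01 ± 2.76. Neighbours in that order mostly lay within each other's spread: Col4a1, Ly6a and Col4a2 overlapped in their ranges over libraries, as did Col6a1 and Col1a1. The order below Sparc depended on how gene length was counted. Per kilobase of the longest coding transcript Sparc came to 279, Dcn was second at 59.8, and Col4a1 at 51.0, Ly6a at 49.2 and Col3a1 at 42.9 stood ahead of Col4a2 at 39.7.

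By summed CPM, in which long transcripts weigh more, fibrillar chains made up a median of 24.1% of the members' CPM, basement membrane chains 23.99% and the glycoproteins Sparc, Fn1 and Fbn1 28.8%. Beaded filament chains took 7.27% and the proteoglycans 7.29%. The multiplexins Col15a1 and Col18a1, which attach basement membranes to the matrix beneath, took 2.49%, the FACIT chains 1.12% and the transmembrane chains 0.204%. In percentage points the share of the fibrillar chains varied most widely, between 21.5% and 29.7%. It was carried upward in cKO replicate 1, where these chains summed to 879.9 CPM against 468.9 CPM in cKO replicate 2. Relative to its size the small share of the transmembrane chains varied more, between 0.149% and 0.285%.

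Fibrillar collagens are told by one long unbroken helix, and the coding sequences show what sets them apart from the type IV chains. A codon for glycine (letters GGN) follows every 2 other codons for 344 glycines in a row in Col3a1, 339 in Col1a2 and 338 in Col1a1, and for 216 to 344 over the 11 fibrillar genes. In type IV the longest such run was 39 to 66 over 6 genes, type IV helices being known for their interruptions. Stretches of 90 coding bases from the marker genes Col3a1 and Col1a2 and from the most abundant type IV chain illustrate this. They were read from the GENCODE coding sequences of GRCm38, 5′ to 3′, with each glycine codon in capitals. They are codons 665 to 694 of Col3a1 (chr1:45336678-45337303, plus strand), codons 589 to 618 of Col1a2 (chr6:4525909-4527126, plus strand) and codons 148 to 177 of Col4a1 (chr8:11244507-11245084, minus strand), each spanning at least 1 intron.
Col3a1: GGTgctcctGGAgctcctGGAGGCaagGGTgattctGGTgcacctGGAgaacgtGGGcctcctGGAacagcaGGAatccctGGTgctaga
Col1a2: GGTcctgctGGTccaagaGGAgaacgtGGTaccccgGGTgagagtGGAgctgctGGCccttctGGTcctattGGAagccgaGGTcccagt
Col4a1: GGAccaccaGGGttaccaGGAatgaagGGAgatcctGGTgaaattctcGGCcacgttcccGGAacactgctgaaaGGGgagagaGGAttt
In the Col3a1 and Col1a2 stretches a glycine codon opens every triplet of codons, and 1 additional glycine codon falls between them in Col3a1. In Col4a1 the spacing slips in the middle of the stretch, where more than 2 other codons separate neighbouring glycines. The Col4a1 window spans the end of that gene's longest run, at codon 162. The Col3a1 and Col1a2 windows lie within their longest runs. The contrast between the stretches thus follows from where the windows were placed, and only the run lengths compare the types.

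Col3a1 (ENSMUSG00000026043, chr1:45311538-45349706, plus strand), the chain of type III collagen, which forms fine fibrils in distensible tissue, stood at 217, 256, 314 and 183 CPM in WT replicates 1 to 4 and at 348, 189, 211 and 193 CPM in cKO replicates 1 to 4. WT replicate 3 and cKO replicate 1 were high, the other 6 libraries lay lower, and the groups overlapped. The fitted difference, cKO over WT, was -0.04 on the log2 scale (95% interval -0.55 to 0.46, edgeR adjusted p = 0.989). Col1a2 (ENSMUSG00000029661, chr6:4504814-4541544, plus strand), the second chain of type I collagen, the main tensile collagen, stood at 112, 117, 146 and 105 CPM in WT and 169, 81.3, 107 and 81.7 CPM in cKO. The same pair of libraries was highest, and cKO replicates 2 and 4 were lowest. Its log2 fold change was -0.13 (95% interval -0.64 to 0.39, edgeR adjusted p = 0.968), and lay between -0.41 and -0.0085 with 1 library left out in turn. The partner chain Col1a1, on chr11, read 92.5, 92.0, 127 and 76.6 CPM in WT and 141, 65.8, 93.4 and 76.1 CPM in cKO, with a log2 fold change of -0.05 (-0.59 to 0.50). The intervals of all 3 genes reach 0.39 or more above 0 and -0.55 or further below it, on the log2 scale.

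The type V chains Col5a1, Col5a2 and Col5a3, which nucleate type I fibrils, were also highest in cKO replicate 1 and WT replicate 3, at lower levels, and differed in the order of the remaining libraries. Col5a3 varied the most of them, 2.61-fold from the lowest to the highest library, with 64.9, 53.9, 78.2 and 35.0 CPM in WT and 83.0, 31.9, 55.5 and 43.3 CPM in cKO. Both fibrillar chains that stood outside this order have other roles: Col11a2, of a collagen known from cartilage, was lowest in cKO replicate 1 at 4.88 CPM, and Col27a1, also a cartilage-associated chain, was lowest in cKO replicate 3 at 32.4 CPM. Col27a1 had 45.9, 69.4, 64.8 and 60.0 CPM in WT and 55.1, 53.2, 32.4 and 48.9 CPM in cKO, and its log2 fold change, cKO over WT, was -0.34 (interval -0.72 to 0.04, edgeR adjusted p = 0.886). Apart from them, 3 fibrillar genes did not pass the filter, namely Col24a1, Col11a1 and Col2a1, the last being the main collagen of cartilage.

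In the basement membrane, Col4a1 and Col4a2 varied least of the abundant collagens, 1.54-fold and 1.36-fold from lowest to highest library. Col4a1 (ENSMUSG00000031502, chr8:11198423-11312826, minus strand) stood at 364, 315, 416 and 270.1 CPM in WT and 345, 301, 339 and 347 CPM in cKO. WT replicate 3 was again the highest library, but cKO replicate 1 was not raised here. Its log2 fold change was -0.04 (-0.33 to 0.26), and that of Col4a2, at 271, 259, 311 and 230.2 CPM in WT and 264, 228, 238 and 245 CPM in cKO, was -0.14 (-0.39 to 0.12). Both chains assemble into a heterotrimer of 2 Col4a1 and 1 Col4a2. Their genes lie head to head on chr8, with annotated starts only 21 bases apart (11312826 on the minus strand and 11312805 on the plus strand in GRCm38), and their annotated exons overlap there. Col4a3 and Col4a4 share this arrangement on chr1, with starts 72 bases apart, and Col4a5 and Col4a6 on chrX, with starts 1309 bases apart. Those 4 genes, whose chains are best known from the kidney glomerulus and other specialised membranes, were scarce: Col4a3, Col4a4 and Col4a5 averaged 0.180, 0.221 and 0.347 CPM per kilobase, and Col4a6 did not pass the filter. Col4a4 stood at 3.203, 3.22, 2.33 and 2.26 CPM in WT and 2.51, 2.00, 1.78 and 1.48 CPM in cKO and its log2 fold change was -0.51 (interval -1.10 to 0.09, edgeR adjusted p = 0.890).

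Among the beaded filament chains, Col6a1, Col6a2 and Col6a3, which build the main form of type VI collagen, ran with the fibrillar chains, and the remaining chains did not. Col6a1 had 61.4, 66.7, 90.7 and 48.6 CPM in WT and 78.7, 52.8, 60.3 and 60.5 CPM in cKO. Col6a2 had 53.1, 63.5, 89.6 and 55.5 CPM in WT and 80.1, 46.2, 50.5 and 55.7 CPM in cKO. Col6a3, whose C-terminal fragment is the adipokine endotrophin, had 50.4, 59.9, 68.2 and 43.2 CPM in WT and 80.4, 41.6, 45.7 and 51.1 CPM in cKO. All 3 were highest in WT replicate 3 or cKO replicate 1, and their log2 fold changes were -0.08, -0.17 and -0.02. Col6a6 was nearly level over the libraries, between 2.00 and 2.79 CPM. Col6a4 was the most variable of the 40 genes that passed the filter, 6.59-fold between 0.453 and 2.98 CPM, with both high and low libraries in each group.

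FACIT, transmembrane and other chains were rarer than most fibrillar chains, the highest being Col14a1 at 1.103 CPM per kilobase. The multiplexins were not. Per kilobase Col15a1, at 6.499, lay between Col6a2 at 7.421 and Col6a3 at 4.603. Col18a1, at 2.7997, lay between Col5a1 at 3.506 and Col5a2 at 2.557. Col15a1, a multiplexin of muscle and capillary basement membranes, read 37.8, 47.8, 50.5 and 30.05 CPM in WT and 61.1, 22.0, 37.8 and 43.1 CPM in cKO. Col18a1, whose C-terminal fragment is endostatin, read 16.0, 20.5, 27.9 and 18.2 CPM in WT and 24.7, 10.4, 20.8 and 18.8 CPM in cKO. Both were lowest in cKO replicate 2. Col20a1, Col12a1 and Col16a1, FACIT chains like Col14a1 below, had log2 fold changes of -0.20, 0.04 and -0.06. The transmembrane chains Col23a1 and Col13a1 had -0.23 and -0.50. Among the remaining networks, Col7a1, the anchoring fibril collagen of skin, stood at 10.9, 6.57, 10.3 and 8.91 CPM in WT and 6.71, 5.59, 9.14 and 8.39 CPM in cKO (-0.30), while Col8a1, Col28a1 and Col26a1 had log2 fold changes of -0.02, -0.45 and -0.11. That of Col28a1 ranged from -0.96 to -0.25 with 1 library left out in turn. None of these passed the adjusted threshold.

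The 14 genes below the filter were all collagens. Counts over all 8 libraries came to 74 for Col22a1, 51 for Col9a3, 42 for Col24a1, 27 for Col10a1, 26 for Col4a6 and 24 for Col6a5. The other 8 had between 2 and 16 counts: Col25a1, Col11a1, Col17a1, Col19a1, Col8a2, Col2a1, Col9a2 and Col9a1. Several of them, Col2a1, Col9a1, Col9a2, Col9a3, Col10a1 and Col11a1, are the classical cartilage collagens. At this depth their levels in the groups could not be compared.

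Of the proteoglycans, Dcn had 96.6, 103, 94.6 and 111 CPM in WT and 137, 81.9, 113 and 105 CPM in cKO, and Lum (lumican) 18.2, 16.0, 14.7 and 12.9 CPM in WT and 22.8, 13.8, 17.96 and 17.7 CPM in cKO. For both, cKO replicate 1 was highest, but WT replicate 3 was not raised. Bgn (biglycan), a close relative of decorin, differed from both in this: it was highest in WT replicate 3, with 50.6, 56.9, 81.0 and 44.5 CPM in WT and 60.7, 39.7, 56.2 and 49.7 CPM in cKO. The log2 fold changes of Dcn, Lum and Bgn were 0.11, 0.23 and -0.17. Sparc followed Bgn, with 642, 613, 791 and 576 CPM in WT and 669, 554, 672 and 615 CPM in cKO and a log2 fold change of -0.06 (-0.34 to 0.21). Fbn1, the fibrillin of elastic microfibrils, was between 12.4 and 17.6 CPM in every library except cKO replicate 1, at 32.3 CPM. Its exons overlap Gm9913, which holds 19.9% of its 31-base sequences, so part of its reads cannot be told apart from that gene without strand.

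WT and cKO were then compared for all 40 tested genes inside the fit of all 14553. None of the 40 passed an adjusted p of 0.05 in edgeR, where 10 genes of the whole table did (0.0687%). On simulated counts the same fit recovered 7.46% of 1.5-fold, 49.3% of 2-fold and 80.3% of 4-fold changes at this threshold. The absence of a call is therefore not evidence of no change. DESeq2 called 46 genes in all (0.316%) and limma-voom 10, and neither called a member. At an unadjusted p under 0.05 edgeR found 3 of the 40 members, Col14a1, Fn1 and Pi16, against 815 genes of the whole table (5.6%), a share of 3 in 40 being near that background. For none of the 40 did the groups separate without overlap, where 510 of all genes did (3.5%), higher in cKO for 1.23% and lower for 2.27%. With WT replicate 3 and cKO replicate 1 both left out, a choice made after they were seen to be high, no member was called either, where 17 of 14426 genes were. In that fit 4 of the 40 members had an unadjusted edgeR p under 0.05. The share of all genes at that p is not given for it, so this count cannot be judged.

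**Figure D2:**
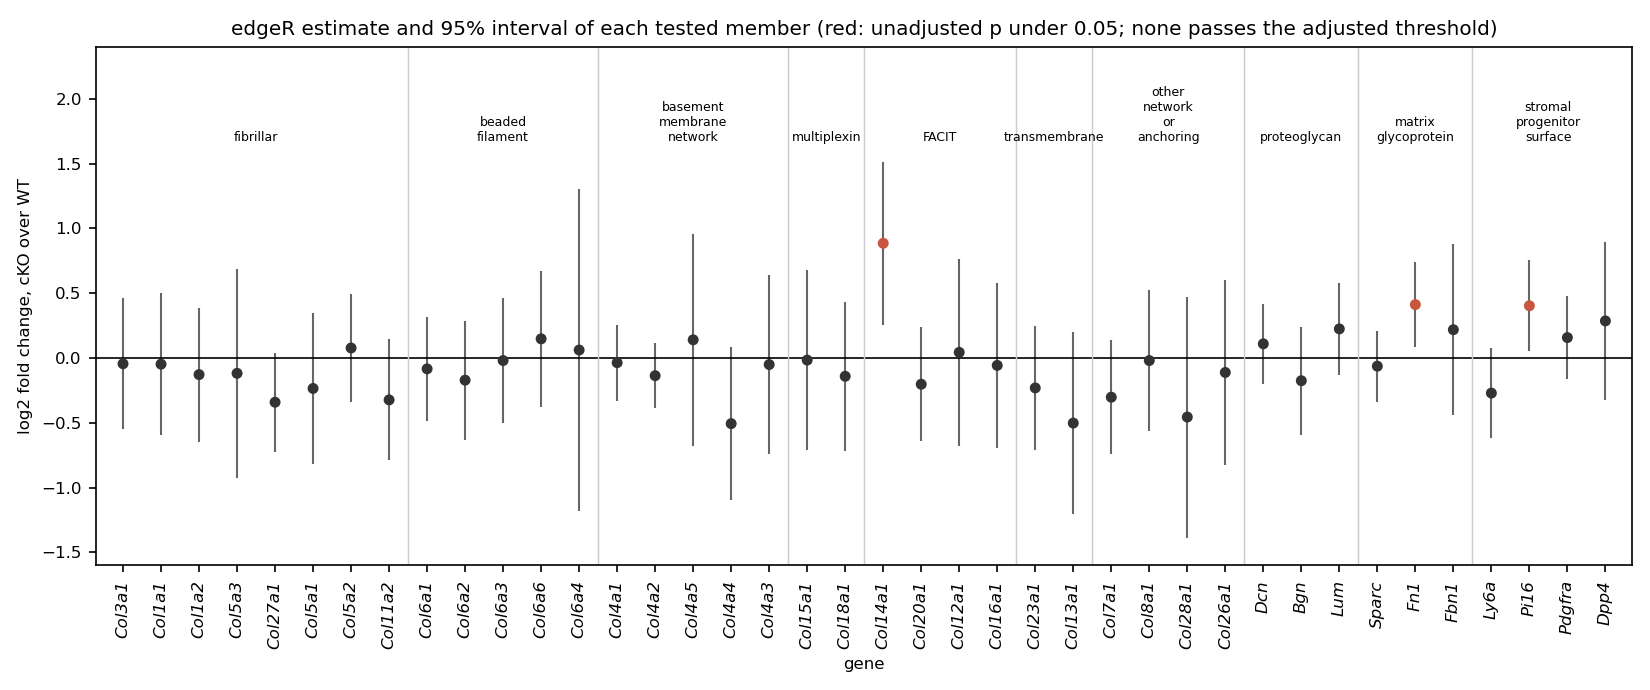
Log2 fold change of each tested gene, cKO over WT, as edgeR estimated it, with its 95% interval; genes are ordered by matrix type as in the plot of levels. Col14a1, Fn1 and Pi16, in red, have an unadjusted p under 0.05, and the intervals of most fibrillar chains reach beyond 0.3 log2 units on either side of 0.

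Col14a1 (ENSMUSG00000022371, chr15:55307750-55520803, plus strand), a FACIT chain on the surface of type I fibrils and a common marker of adipose fibroblasts, had the largest difference of the 40. It stood at 6.53, 5.93, 3.58 and 5.74 CPM in WT replicates 1 to 4 and at 15.4, 5.69, 10.3 and 8.61 CPM in cKO replicates 1 to 4. cKO replicates 1, 3 and 4 were above every WT library, and cKO replicate 2 lay within the WT range. The log2 fold change was 0.89 ± 0.29 (SE; 95% interval 0.26 to 1.52), with an unadjusted p of 0.0101 and an adjusted p of 0.867 in edgeR. It was 0.605 without cKO replicate 1 and 0.44 with WT replicate 3 left out as well. Without the filter on low counts, Col14a1 passed, at an adjusted p of 0.0129 in edgeR. That fit called 93 of 35502 genes, against 10 of 14553 with the filter. The log2 fold change of Col14a1 was 0.87 in it, little moved, while the unadjusted edgeR p fell to 2.28e-05. The call thus depended on which rows entered the fit. The mean log2 CPM of the muscle markers was also highest in cKO replicate 1, at 9.67, and with that mean as a covariate the log2 fold change of Col14a1 was 0.85.

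Fn1 (ENSMUSG00000026193, chr1:71585520-71653200, minus strand), fibronectin, on whose fibres other matrix proteins are laid down, had 32.6, 34.0, 42.5 and 39.6 CPM in WT and 61.2, 36.8, 52.0 and 47.7 CPM in cKO. cKO replicates 1, 3 and 4 were above every WT library, as for Col14a1. Its log2 fold change was 0.41 ± 0.15 (SE), with an unadjusted p of 0.0171 and an adjusted p of 0.882 in edgeR. Pi16 (ENSMUSG00000024011, chr17:29317680-29330593, plus strand), a peptidase inhibitor that marks interstitial progenitors, had 20.8, 18.7, 17.0 and 23.9 CPM in WT and 35.4, 24.9, 23.7 and 22.4 CPM in cKO. Here cKO replicate 1 stood apart from 3 cKO libraries that lay around the highest WT library. Its log2 fold change was 0.40 ± 0.16 (SE; unadjusted p 0.0270, adjusted p 0.882, edgeR), and 0.16 with cKO replicate 1 and WT replicate 3 both left out. Of the other surface markers, Pdgfra, the receptor that defines adipose stromal progenitors, read 12.1, 11.4, 9.93 and 10.1 CPM in WT and 14.2, 9.99, 12.5 and 11.9 CPM in cKO. Dpp4 read 2.61, 2.00, 3.38 and 3.47 CPM in WT and 4.20, 2.30, 4.51 and 2.89 CPM in cKO. Ly6a read 52.1, 44.4, 67.7 and 41.3 CPM in WT and 41.6, 41.8, 50.9 and 36.2 CPM in cKO, and 31.9% of its 31-base sequences occur in other genes, mainly Ly6c1, so its estimate depends on how shared reads were divided. Their log2 fold changes were 0.16, 0.29 and -0.27. With 1 library left out in turn they ranged from 0.080 to 0.24 for Pdgfra, from 0.14 to 0.43 for Dpp4 and from -0.37 to -0.11 for Ly6a.

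Of the 30 collagens tested, 24 had a log2 fold change below 0, where 48.2% of all genes did. Their median was -0.10, against 0.01 over all genes. This split was lost when either of 2 libraries was left out. Without WT replicate 3, 14 of the 30 were below 0, and without cKO replicate 2, 15 of the 30. With any other single library left out, between 19 and 26 of the 30 were below 0. With WT replicate 3 and cKO replicate 1 both left out, 25 of the 30 were. The collagens are not independent in this, because the fibrillar and type VI chains were high and low in the same libraries, as described next.

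In the 3 pairs of partner chains compared, of types I, IV and VI, the ratio varied less over the libraries than the level did. Col1a1 to Col1a2, per kilobase of exon, was 1.52 ± 0.114 in WT and 1.63 ± 0.102 in cKO (SD, n = 4; two-sided exact permutation p = 0.2, 0.4 adjusted over 4 ratios). Over the 8 libraries that ratio varied 1.28-fold, from 1.38 in WT replicate 4 to 1.76 in cKO replicate 4, where Col1a1 itself varied 2.14-fold. Col4a1 to Col4a2 was 1.12 ± 0.0748 in WT and 1.21 ± 0.0540 in cKO (exact permutation p = 0.171, adjusted 0.4) and varied 1.21-fold. Col6a1 to Col6a2 was 1.94 ± 0.219 and 2.09 ± 0.173 (exact permutation p = 0.343, adjusted 0.457). Col3a1 to Col1a1, chains of different collagens that share fibrils, was 1.67 ± 0.132 and 1.69 ± 0.170 (exact permutation p = 0.8286). The smallest two-sided p that 4 against 4 libraries allow is 0.0286. The size of each ratio depends on the length used. Per kilobase of the longest coding transcript Col1a1 to Col1a2 was 0.725 in WT and 0.777 in cKO, below 1, so no order of the type I chains can be read from it.

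**Figure D3:**
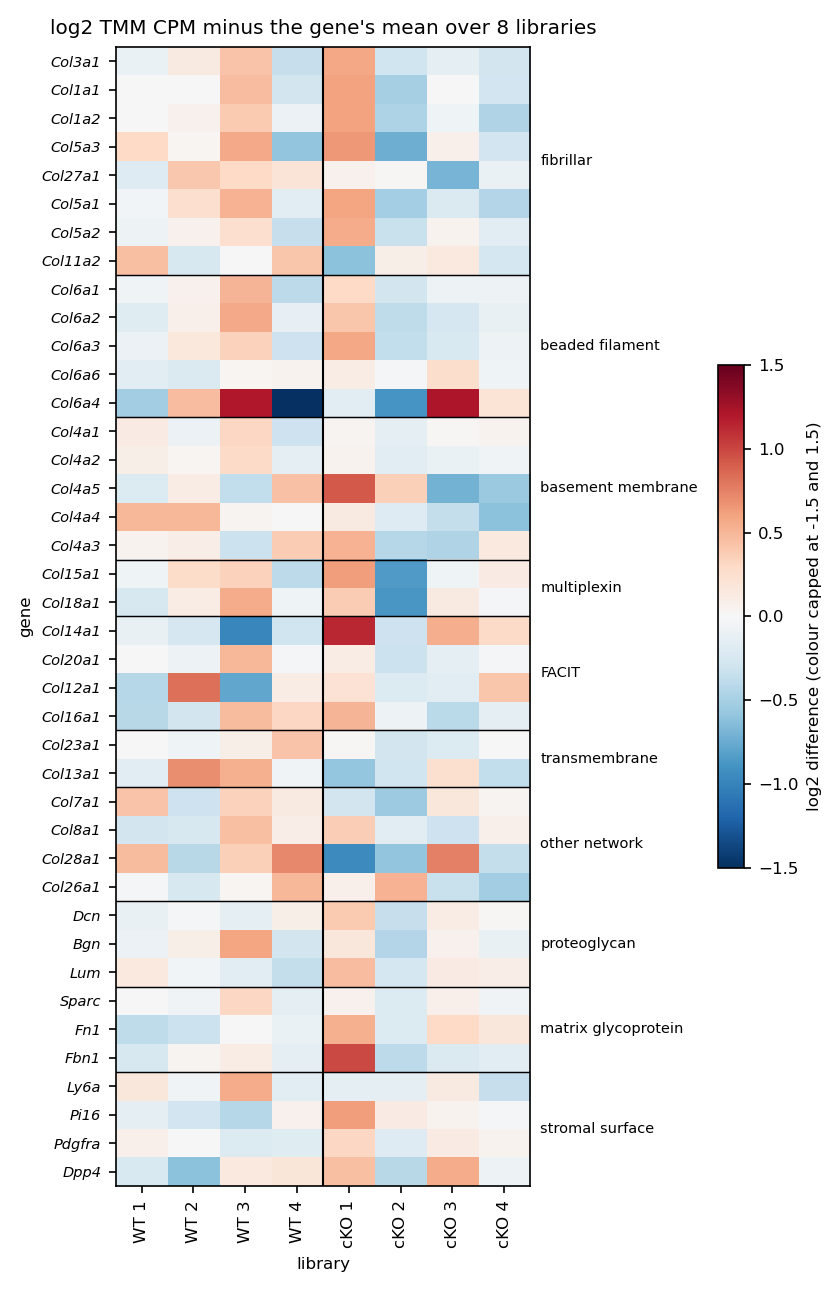
Log2 CPM of each tested gene (rows, by matrix type) in each library (columns, WT left and cKO right of the line), minus the gene's mean over the 8 libraries; red is above and blue below that mean. Fibrillar chains other than Col11a2 and Col27a1, with Col6a1 to Col6a3, are red in WT replicate 3 and cKO replicate 1 and mostly blue in cKO replicate 2.

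Covariation between libraries was the strongest pattern in these genes. Over the 8 libraries Col3a1 and Col1a2 had a Pearson r of 0.918 (exact permutation p = 0.000818, adjusted 0.00532 over 13 relations; Spearman rho 0.929, p = 0.00223, adjusted 0.0290). Col3a1 and Col1a1 had an r of 0.948 (exact permutation p = 0.000694, adjusted 0.00532; rho 0.833, p = 0.0154, adjusted 0.04998). For Col6a1 and Col6a2 r was 0.898 (exact permutation p = 0.00317, adjusted 0.0138; rho 0.810, p = 0.0218, adjusted 0.0566). All 3 rested on WT replicate 3 and cKO replicate 1, the libraries farthest from the median: without them r was 0.676, 0.748 and 0.491 over 6 libraries, and none passed the adjusted threshold. Col4a1 and Col4a2 had an r of 0.860 (exact permutation p = 0.00769, adjusted 0.0250; rho 0.857, p = 0.0107, adjusted 0.0464), which was 0.643 without WT replicates 3 and 4. This pair was no sturdier. Its adjusted exact permutation p lay between 0.0535 and 0.137 with WT replicate 1, 3 or 4 or cKO replicate 1 or 2 left out. Without WT replicate 3 and cKO replicate 1 together, r was 0.70 (exact permutation p = 0.132, adjusted 0.506).

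Beyond the fibrillar chains, r with Col3a1 varied from gene to gene. As a description, it was 0.847 for Fbn1, 0.820 for Col15a1, 0.820 for Bgn, 0.757 for Col4a2 and 0.723 for Sparc, above that of the fibrillar Col27a1 (0.354). Of the relations tested, r was 0.598 with Col4a1 (exact permutation p = 0.121, adjusted 0.263; rho 0.619, p = 0.115, adjusted 0.246), 0.431 with Dcn (exact permutation p = 0.298, adjusted 0.430; rho 0.143, p = 0.752, adjusted 0.815) and 0.389 with Pdgfra (exact permutation p = 0.342, adjusted 0.445; rho 0.310, p = 0.462, adjusted 0.667). Without cKO replicate 1 and WT replicate 3 these were 0.375, 0.107 and 0.496. Pi16 and Dpp4, markers of the same progenitor class, had an r of 0.470 (exact permutation p = 0.243, adjusted 0.395; rho 0.381, p = 0.360, adjusted 0.585), and 0.552 without that pair of libraries.

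Marker lists of other cell types were set against Col3a1 in the same family. The mean of 6 macrophage markers had an r of 0.770 with it (exact permutation p = 0.0292, adjusted 0.0759; rho 0.881, p = 0.00724, adjusted 0.0464), and 0.713 without cKO replicate 1 and WT replicate 3. None of the 6 was under 1 CPM, and their sum lay between 58.7 and 95.3 CPM in WT and between 43.4 and 103 CPM in cKO, lowest in cKO replicate 2, where Col3a1 was low too. The part of macrophage content in the collagen levels was not tested. For the muscle markers r was 0.056 (exact permutation p = 0.899; rho -0.143, p = 0.752), and -0.379 without that pair. For the endothelial markers it was 0.119 (exact permutation p = 0.788; rho -0.048, p = 0.935), and -0.0998 without them. For the brown adipocyte markers it was -0.538 (exact permutation p = 0.172; rho -0.262, p = 0.536), and -0.062 without them. For the log2 library total it was 0.190 (exact permutation p = 0.670; rho 0.595, p = 0.132), and 0.284 without them. Adjusted values of r for these 4 ran from 0.320 to 0.899, and those of rho from 0.246 to 0.935.

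**Figure D4:**
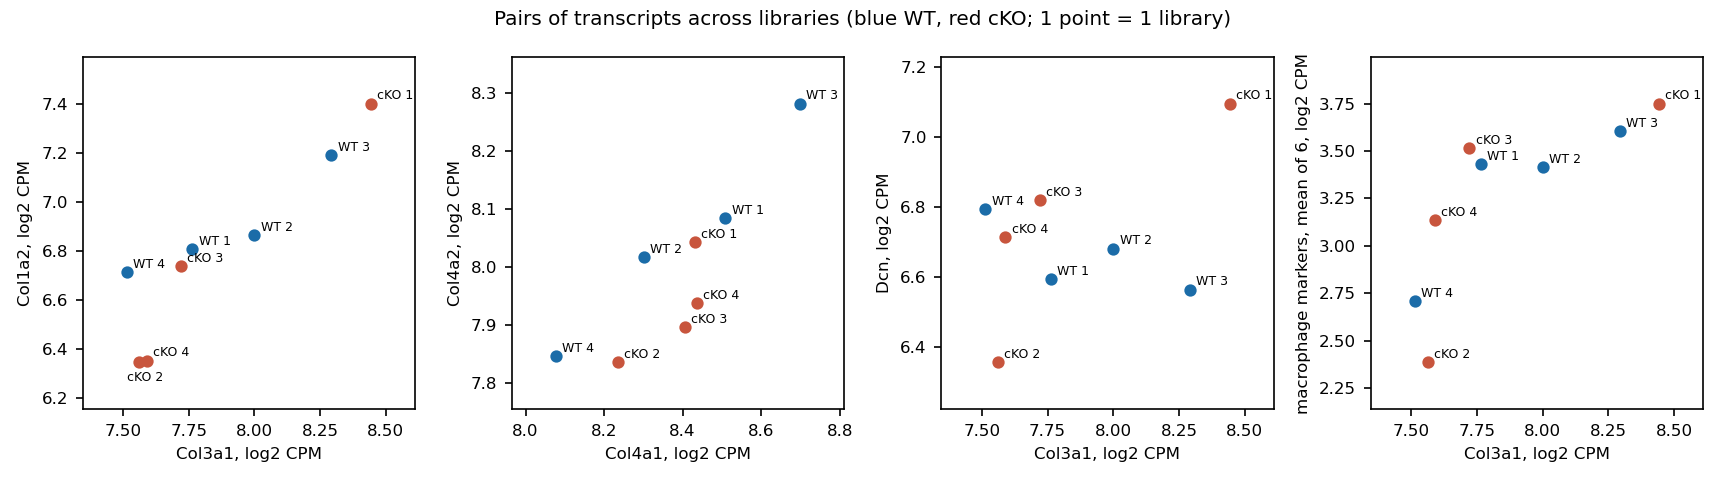
Pairs of values across libraries, in log2 CPM, 1 point per library (blue WT, red cKO): Col1a2, Dcn and the mean of 6 macrophage markers against Col3a1, and Col4a2 against Col4a1. Col1a2 climbs with Col3a1 through both groups, whereas Dcn is raised in cKO replicate 1 and not in WT replicate 3.

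Ranked over 14552 genes by their r with Col3a1, part of the members stood near the top: 9 of the other 39 were among the first 100, while 5 of the 39 had a negative r and the median was 0.46. Of those 39, 7 had an r of at least 0.9 (17.9%), where 27 of all genes did (0.186%), as a description with no test, since members share libraries and were chosen as a family. Those 7 were Col6a3 (0.963), Col5a2 (0.951), Col5a1 (0.949), Col1a1 (0.948), Col6a1 (0.922), Col1a2 (0.918) and Col6a2 (0.905). Together with Col3a1 itself, a set of 8 chosen after these values were seen, their 28 pairs had r between 0.777 and 0.967 with a median of 0.910. With each gene centred on its group mean the median was 0.926. Centring keeps WT replicate 3 and cKO replicate 1, which lie in different groups, so it cannot show how tight the other libraries were. No value without them is given for this set. The 10 non-members most like Col3a1 were Vwf (0.966), the von Willebrand factor of endothelial cells, Slc37a4 (0.966), Cdc42ep5 (0.956), Srxn1 (0.948), Meox2 (0.944), Ror1 (0.938), Ccdc3 (0.936), Ankrd13b (0.934), Blmh (0.930) and Capn2 (0.930).

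**Figure D5:**
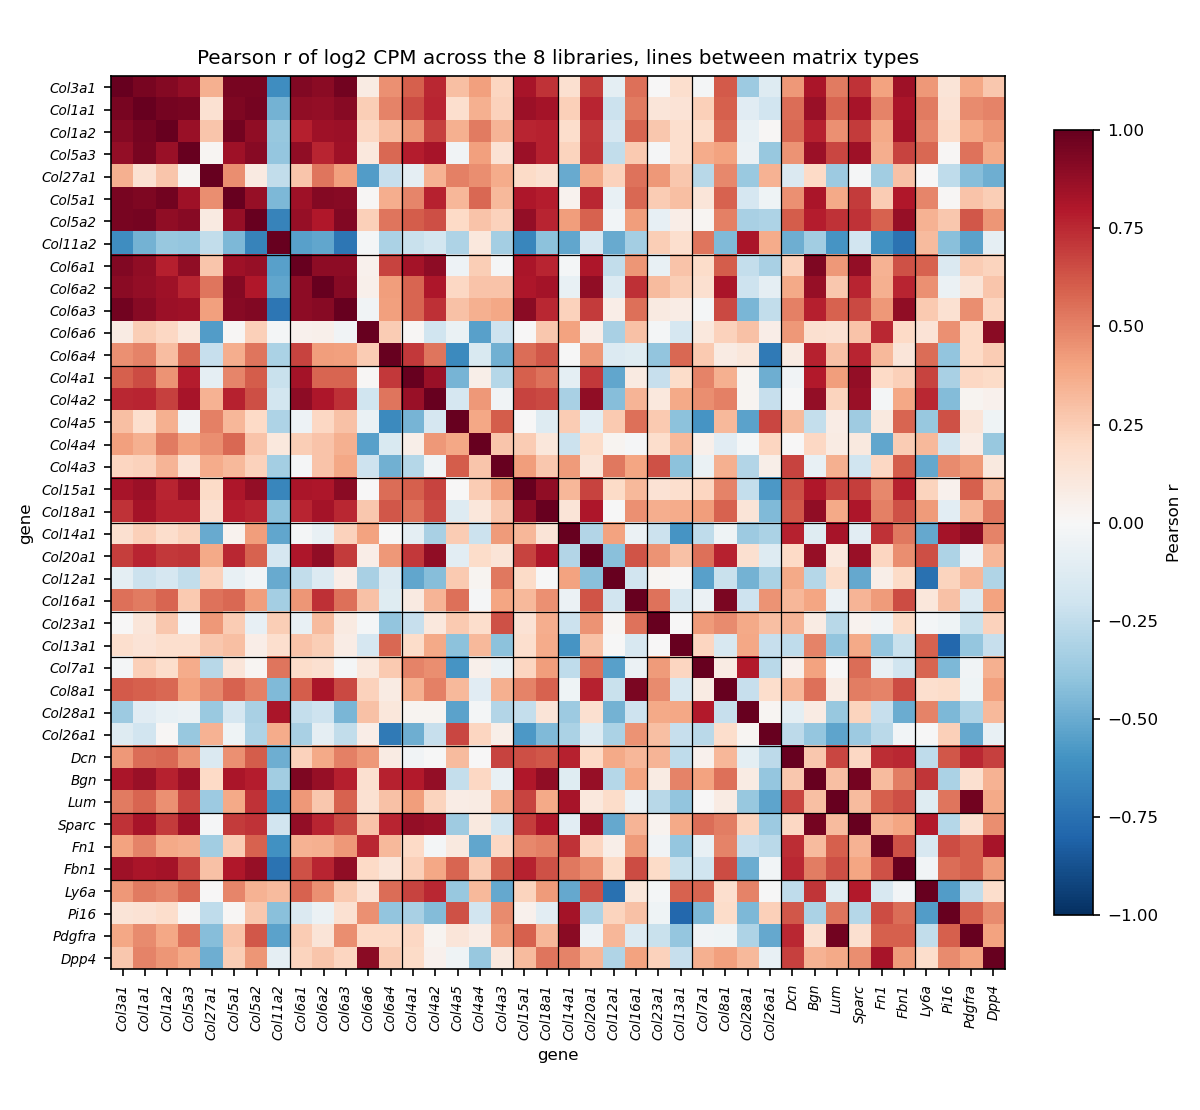
Pearson r of log2 CPM between every pair of the 40 tested genes over 8 libraries, from -1 (blue) to 1 (red), with lines between matrix types. The dark block at the upper left joins the fibrillar chains with Col6a1, Col6a2 and Col6a3, and rows such as Col11a2 and Col6a6 fall outside it.

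Further pairs were picked from the matrix of all pairs after the values were seen. Lum and Pdgfra had the highest r of all 780 pairs, 0.967, and Col14a1 had 0.905 with Pdgfra, 0.830 with Pi16 and 0.822 with Lum, against 0.163 with Col3a1. Sparc had 0.955 with Bgn, 0.880 with Col6a1, 0.877 with Col4a1, 0.863 with Col4a2 and 0.825 with Col1a1, and Bgn had 0.932 with Col6a1, so both also went with type VI and fibrillar chains. Col16a1 and Col8a1, both scarce, had 0.941. Col11a2 had negative values with most fibrillar chains (-0.625 with Col3a1).

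Because these chains covary, the bases before their start sites are shown for 3 of them that lie on separate loci and whose windows hold no annotated exon: Col3a1 (chr1:45311288-45311537, plus strand), Col5a1 (chr2:27886175-27886424, plus strand) and Col6a3 (chr1:90843972-90844221, minus strand). Each is the 250 bases upstream of the RefSeq start in GRCm38.p6, 5′ to 3′. Capitals mark the motifs searched on both strands, the CCAAT box, the TATA box (TATAAA), the GC box (GGGCGG) and the CAGA box (CAGACA), a core of Smad binding, with their reverse complements. The 4 motifs do not overlap one another in these windows.
Col3a1: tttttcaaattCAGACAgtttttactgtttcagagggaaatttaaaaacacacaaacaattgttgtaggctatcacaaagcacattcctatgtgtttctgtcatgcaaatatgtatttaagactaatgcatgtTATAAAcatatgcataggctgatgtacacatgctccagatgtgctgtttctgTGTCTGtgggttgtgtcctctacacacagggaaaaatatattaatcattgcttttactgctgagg
Col5a1: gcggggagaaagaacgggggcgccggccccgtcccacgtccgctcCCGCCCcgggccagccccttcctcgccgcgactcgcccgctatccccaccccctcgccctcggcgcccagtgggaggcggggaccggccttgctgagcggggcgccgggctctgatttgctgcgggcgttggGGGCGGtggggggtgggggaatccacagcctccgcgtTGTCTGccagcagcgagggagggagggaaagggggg
Col6a3: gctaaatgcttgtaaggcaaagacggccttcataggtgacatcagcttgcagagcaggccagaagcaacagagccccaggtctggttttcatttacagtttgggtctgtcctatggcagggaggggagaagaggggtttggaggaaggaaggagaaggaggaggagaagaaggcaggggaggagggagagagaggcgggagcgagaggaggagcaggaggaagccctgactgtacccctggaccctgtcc
The Col3a1 window holds CAGACA at -239 and, on the other strand, at -65, with TATAAA at -117. Col5a1 holds GGGCGG on either strand, at -205 and -73, and CAGACA on the other strand at -36. Col6a3 holds none of the motifs. Whether any motif bears on the covariation was not tested. RefSeq gave windows for 41 of the 54 members, 44 windows in all. GGGCGG was in 24 of them (54.5%) against 32.7% of 32851 windows of all genes, CCAAT in 14 (31.8% against 33.8%), CAGACA in 10 (22.7% against 17.1%) and TATAAA in 6 (13.6% against 12.4%). These matches are letters in a window and not shown to be sites.

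The genes that process, bind and cut these proteins gave no call either. Of 129 genes in 8 related lists, 108 were tested and 0 were called by edgeR, DESeq2 or limma-voom. At an unadjusted p under 0.05 edgeR found 5 (4.63%, beside 5.6% of all genes), 56 log2 fold changes were above 0 and 52 below, and the median was 0.01. Among 24 collagen-modifying enzymes, 10 were above 0 and 14 below. P4ha1, a prolyl 4-hydroxylase subunit that stabilises the helix, had 35.8, 27.9, 31.4 and 51.7 CPM in WT and 40.9, 51.2, 56.5 and 72.1 CPM in cKO, and its log2 fold change was 0.59 (edgeR adjusted p = 0.882), and it was called without the filter on low counts. WT replicate 4 stood with the cKO libraries for this gene. Serpinh1, the collagen chaperone Hsp47, had a log2 fold change of 0.10, P4hb 0.03 and Plod1 0.08. Pcolce2, an enhancer of procollagen cleavage, had 0.55, with an unadjusted p of 0.0368 in edgeR.

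In the other lists no gene passed the adjusted threshold. Postn (periostin), a matricellular protein, had 111, 118, 129 and 104 CPM in WT and 91.7, 81.2, 89.5 and 104 CPM in cKO, and WT replicate 4 and cKO replicate 4 lay together. Its log2 fold change was -0.33 (unadjusted p 0.0123, adjusted p 0.867, edgeR). Lama5, a laminin chain of basement membranes, had -0.38 and Mmp19, a matrix metalloprotease, 0.28. The basement membrane partners Hspg2 (perlecan), Lamb1 and Nid1 had log2 fold changes of -0.25, 0.25 and 0.14, with 5 of 14 genes above 0. Of 17 proteases and inhibitors 11 were above 0, Timp3, Timp4 and Timp2 having 0.19, -0.34 and 0.28. The elastic fibre genes (5 of 13 above 0) included Ltbp3, Ltbp2 and Ltbp4 at -0.22, -0.09 and -0.09. In TGF-beta signalling, the main known inducer of fibrillar collagen genes, 11 of 15 were above 0, with Tgfbr2 at 0.01, Tgfbr3 at 0.32 and Ski at -0.03. Among collagen receptors 6 of 8 were above 0, with Cd36, Itgb1 and Itga1 at 0.15, 0.07 and 0.00. Matricellular genes had 6 of 13 above 0 (Sparcl1 0.01, Smoc1 -0.13), and the other small proteoglycans 3 of 5 (Prelp 0.06, Podn -0.03, Aspn 0.27).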

How the data were processed

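Polyadenylated RNA of 8 brown fat libraries was measured by sequencing. The deposited table holds the authors' estimated counts for 54385 Ensembl genes (rows) in each library (columns). Library preparation used NEBNext Ultra II RNA reagents, per the labels' protocols. The submitters' processing notes list StringTie, Salmon, edgeR and the build GRCm38 but no version or setting. Strand use and annotation: not given in the sources used here. Estimated counts divide reads between similar transcripts.

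GENCODE M21 named 54131 rows (99.5%). Counts were rounded, and 0 unmapped sample columns were found. No pair of libraries within a group agreed within sampling noise. Genes were kept with filterByExpr (14553), scaled by TMM and tested with the robust quasi-likelihood fit of edgeR 4.0.16 under R 4.3.3, with group as the only term and a Benjamini-Hochberg adjusted p of 0.05 over all genes. Errors after ± are SDs unless marked SE, and log2 CPM carries a prior count of 2. Correlations and chain ratios have two-sided exact permutation tests (Python 3.11.15, scipy 1.17.1). The fit and the correlation test were tested on simulated data. DESeq2 1.42.0 and limma-voom (limma 3.58.1), other scalings and filters, a replicate block, a muscle covariate, moving WT replicate 4, and leaving out libraries were tried.

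The members and lists were chosen with earlier results of these data known. Genes named are the markers Col3a1 and Col1a2, members at an unadjusted p under 0.05, up to 4 per matrix type by level, members of the pairs and ratios, all below the filter, the 3 most abundant and any called genes of each related list, and others, said to be so or named for their place in a type, after their values were seen. Same-numbered replicates did not pair: their deviations correlated at -0.4637, 0.035, 0.4089 and 0.0016.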

Additional observations from a re-analysis of the deposited data

Results flagged for a closer look

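Within each group of 4 libraries, a library was singled out when its gap to the nearest of the others was, as a share of the group's range, above Dixon's 95% critical value for 4 samples. Of 80 groups (40 genes in WT and in cKO), 4 were singled out (5%), and chance gives about 1 in 20.

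Col3a1 in cKO was highest in cKO replicate 1, at 348 CPM, with the next library at 211 CPM. Fbn1 in cKO was highest in the same library, at 32.3 CPM, with the next at 14.5 CPM. Col4a1 in cKO was lowest in cKO replicate 2, at 301 CPM, with the next at 339 CPM. Col20a1 in WT was highest in WT replicate 3, at 6.70 CPM, with the next at 4.76 CPM. These are the libraries with the highest and lowest collagen share of counts in their groups, 0.185% in cKO replicate 1, 0.114% in cKO replicate 2 and 0.210% in WT replicate 3.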

How the results depend on the processing

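No member was called under any of 19 alternative fits except the fit without a count filter, which called 1 member (Col14a1) and 1 gene of the related lists (P4ha1). That unfiltered fit called 93 of 35502 genes in all, against 10 of 14553 in the main fit. The fit with a replicate block called 0 members and 0 related genes and changed no other call of a member; same-numbered libraries share only a number. Of the other scalings, upper quartile factors shifted the median log2 fold change of all genes most, by -0.0124. Fold changes near 0 changed sign. With WT replicate 3 and cKO replicate 1 both left out (chosen after seeing the data), log2 fold changes became 0.0106 for Sparc, 0.0573 for Col4a1, -0.045 for Dcn, -0.0301 for Col5a2, -0.15 for Fbn1, -0.19 for Col12a1, 0.0126 for Col8a1 and -0.37 for Col4a5. With WT replicate 4 moved to cKO they became -0.0816 for Col5a2, 0.0125 for Col23a1, 0.025 for Col8a1, 0.10 for Col16a1, 0.17 for Col26a1, -0.43 for Col6a4 and 0.15 for Col4a3, and the ratio differences -0.0169 for Col3a1 to Col1a1 and -0.0276 for Col6a1 to Col6a2. With the muscle covariate they became 0.0321 for Col4a1, -0.0627 for Col12a1 and -0.15 for Col4a5, and with limma-voom 0.0185 for Col8a1 and 0.0063 for Col16a1. The cause was not tested. Leaving out 1 library in turn gave these ranges of log2 fold changes that change sign: Sparc -0.11 to 0.044, Col4a1 -0.12 to 0.076, Col3a1 -0.29 to 0.11, Dcn -0.0097 to 0.22, Col6a1 -0.20 to 0.10, Col1a1 -0.30 to 0.12, Bgn -0.27 to 0.030, Col5a3 -0.40 to 0.063, Col6a2 -0.36 to 0.025, Col15a1 -0.26 to 0.19, Col6a3 -0.26 to 0.10, Col18a1 -0.29 to 0.053, Col5a2 -0.12 to 0.19, Fbn1 -0.20 to 0.36, Col12a1 -0.15 to 0.43, Col8a1 -0.15 to 0.16, Col16a1 -0.26 to 0.12, Col4a5 -0.25 to 0.35, Col26a1 -0.33 to 0.051, Col6a4 -0.45 to 0.62 and Col4a3 -0.27 to 0.083. Other fold changes kept their sign but moved over 1.5 times, among them Col4a2 (-0.19 to -0.053), Lum (0.0985 to 0.33), Col27a1 (-0.45 to -0.20), Pi16 (0.24 to 0.50), Col20a1 (-0.27 to -0.046), Col7a1 (-0.42 to -0.19), Col23a1 (-0.28 to -0.11) and Col13a1 (-0.70 to -0.33). The ratio difference of Col3a1 to Col1a1 ranged over -0.042 to 0.074. Ranges of r over the same libraries were: Col4a1 with Col4a2 0.72 to 0.90, Col3a1 with skeletal muscle markers -0.39 to 0.27, Col6a1 with Col6a2 0.80 to 0.98, Col3a1 with endothelial markers -0.72 to 0.74, Col3a1 with Col1a2 0.85 to 0.96, Col3a1 with Col1a1 0.91 to 0.96, Col3a1 with Dcn -0.12 to 0.67 and Col3a1 with Pdgfra -0.14 to 0.79. With both libraries left out r was 0.676 for Col3a1 and Col1a2, 0.748 for Col3a1 and Col1a1, 0.70 for Col4a1 and Col4a2, 0.491 for Col6a1 and Col6a2, -0.379 for Col3a1 and muscle markers and -0.0998 for Col3a1 and endothelial markers, over 6 libraries. Per kilobase of the longest coding transcript the levels were 279 for Sparc, 42.9 for Col3a1, 59.8 for Dcn, 21.5 for Col1a2, 13.3 for Col6a2 and 49.2 for Ly6a. At this depth 14 members could not be tested. Of the 40 tested, Col6a4 and Col28a1 have the widest intervals, and the parts of depth and of spread between libraries in them were not separated.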
